A study of Mus musculus with 8 samples.

Results

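The genes described here are the alpha1B-adrenergic receptor gene ADRA1B and 9 genes of heterotrimeric G protein subunits. They comprise 7 alpha subunits (GNAQ, GNA11, GNA12, GNA13, GNAS, GNAI2 and GNAI3) and 2 beta subunits (GNB1 and GNB2), and they were chosen by name: a row of the deposited table belonged to the set when its symbol equalled one of the 10. All 10 were found among 33514 rows, and all 10 were among the 3020 genes with enough counts to be tested. The 8 libraries came from isolated, cultured heart muscle cells of adult C57BL/6 mice. Of these, 4 had been transfected with an siRNA against the homeobox gene Hoxa5 (siHoxa5) and 4 with a negative control siRNA (siN). Both groups received 100 µM phenylephrine for 24 h, starting 24 h after transfection, so every library comes from cells whose alpha1-adrenergic receptors had been given an agonist, and the response to the agonist itself was not measured. The age of the mice is not given beyond adult, and the labels do not say whether the 4 replicates of a group came from separate hearts or cultures, so each p-value reflects only how much these libraries vary, which may be technical.

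Adrenergic receptors sit in the cell membrane and bind noradrenaline, adrenaline and drugs such as phenylephrine. An occupied receptor makes the alpha subunit of a G protein exchange GDP for GTP, after which the alpha subunit and the beta-gamma pair act on separate effectors. In heart muscle, alpha1 receptors act mainly through the Gq class (GNAQ, GNA11) on phospholipase C beta, inositol trisphosphate and protein kinase C, a route long studied for the growth of cardiomyocytes. The G12 class (GNA12, GNA13) acts on the actin cytoskeleton, the Gs class (GNAS) stimulates adenylyl cyclase below the beta-adrenergic receptors, and the Gi class (GNAI2, GNAI3) inhibits adenylyl cyclase.

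The last codons of an alpha subunit gene encode the carboxy-terminal tail that the receptor contacts, and this tail largely sets which receptors a class serves. The final 36 coding bases before the stop codon are shown for the 7 alpha subunits because they display the classes by which the results are ordered. They are in the sense of the mouse transcript (GENCODE M21, build GRCm38), 5′ to 3′, and the last 15 bases are in capitals.
GNAQ: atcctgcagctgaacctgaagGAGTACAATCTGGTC
GNA11: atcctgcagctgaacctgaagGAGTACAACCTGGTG
GNA12: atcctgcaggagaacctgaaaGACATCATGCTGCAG
GNA13: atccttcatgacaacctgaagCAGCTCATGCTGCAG
GNAS: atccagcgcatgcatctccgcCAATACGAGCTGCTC
GNAI2: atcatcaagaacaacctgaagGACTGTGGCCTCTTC
GNAI3: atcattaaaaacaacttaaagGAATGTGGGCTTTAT
Each of these stretches lies within 1 exon: GNAQ at chr19:16383356-16383391 (plus strand), GNA11 at chr10:81530798-81530833 (minus), GNA12 at chr5:140760552-140760587 (minus), GNA13 at chr11:109396448-109396483 (plus), GNAS at chr2:174346350-174346385 (plus), GNAI2 at chr9:107615638-107615673 (minus) and GNAI3 at chr3:108109425-108109460 (minus). GNAQ and GNA11 had the same base at 34 of the 36 positions, GNA12 and GNA13 at 29, and GNAI2 and GNAI3 at 27. These were the 3 closest of all pairs. GNAS shared at most 21 positions with another subunit, and that was with GNAQ. Over the 15 bases in capitals GNAQ and GNA11 shared 13 and GNA12 and GNA13 shared 12. GNAI2 and GNAI3 shared 10 of these 15, as did GNAQ and GNAS, so the capitals alone do not set the Gi pair apart. Over the whole coding sequence the longest identical run was 38 bases between GNAQ and GNA11, 26 between GNA12 and GNA13, and 22 both between GNAI2 and GNAI3 and between GNB1 and GNB2. How multiply matching reads were counted is not stated, so a read that falls within such a run could have been credited to either gene.

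Libraries held 560190 to 619942 counts in the siHoxa5 group and 635824 to 658192 in the siN group. These totals are low and leave genes of modest expression with few counts per library. HOXA5, the siRNA target, had 1, 3, 4 and 1 counts in siHoxa5 libraries 1 to 4 and 2, 0, 3 and 3 counts in siN libraries 1 to 4. That is a rate ratio of 1.24 with an exact 95% interval of 0.426 to 3.70 for counting error, so no lower level of the target was seen. A fall to between 0.426 and 1 times the siN level lies within that interval, and a larger fall lies outside it. The interval does not cover variation between libraries. Directions are therefore given by label, for libraries labelled siHoxa5 relative to libraries labelled siN. The symbols in the table are spelled as human genes. Of 15 cardiomyocyte markers 11 had counts, and TNNI3, MYL2, MYL3 and PLN, which adult mouse heart muscle expresses strongly, were at 0 in every library. A gene at 0 or at a low count in the table therefore need not be silent in the cells. Fibroblast markers summed to between 10961 and 12880.5 CPM (counts scaled to library size, as in edgeR) in siHoxa5 libraries and between 10221 and 10909 CPM in siN libraries. Most of that was COL1A1, while LUM and TCF21 were at 0. Endothelial markers summed to at most 34.3 CPM and leukocyte markers to at most 1.82 CPM in any library, with PECAM1, CDH5 and CD68 at 0. On the first principal component, which held 25.8% of the variance, siHoxa5 libraries 2 and 4 scored at least 10.8 and siHoxa5 libraries 1 and 3 scored 2.74 and 4.69, against -7.77 to -6.30 in siN libraries. For the 10 genes and ADRB1, values without siHoxa5 libraries 2 and 4 are given wherever leaving them out changed a call. That setting was chosen after the data were seen.

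Of the 10 genes 1 passed the threshold: GNAS was higher in siHoxa5 libraries, and 0 were lower. The test was edgeR's quasi-likelihood test at a Benjamini-Hochberg adjusted p under 0.05 over all tested genes. Over all of these genes 7.12% were called, 3.74% higher and 3.38% lower, so 1 of 10 is near the background and is not a result about the set. DESeq2, which called 3.94% of tested genes, and limma-voom, which called 6.62%, each called GNAS alone. For GNA11, DESeq2 gave no adjusted p, so that gene could not be called with it. At an unadjusted edgeR p under 0.05 there were 3 of the 10 and 19.6% of all tested genes, and after adjustment 0 of the 10 were lower with any of the 3 tools. The CPM of every siHoxa5 library was above that of every siN library for 1 of the 10, again GNAS, and for 6.19% of tested genes. It was below for 0 of the 10 and for 5.76% of tested genes. The median log2 fold change (siHoxa5 over siN) of the 10 was -0.06, beside -0.0037 over all tested genes. Most differences were small next to the spread between libraries, and GNAS, GNAI2 and ADRA1B are the 3 genes that passed without adjustment.

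**Figure D1:**
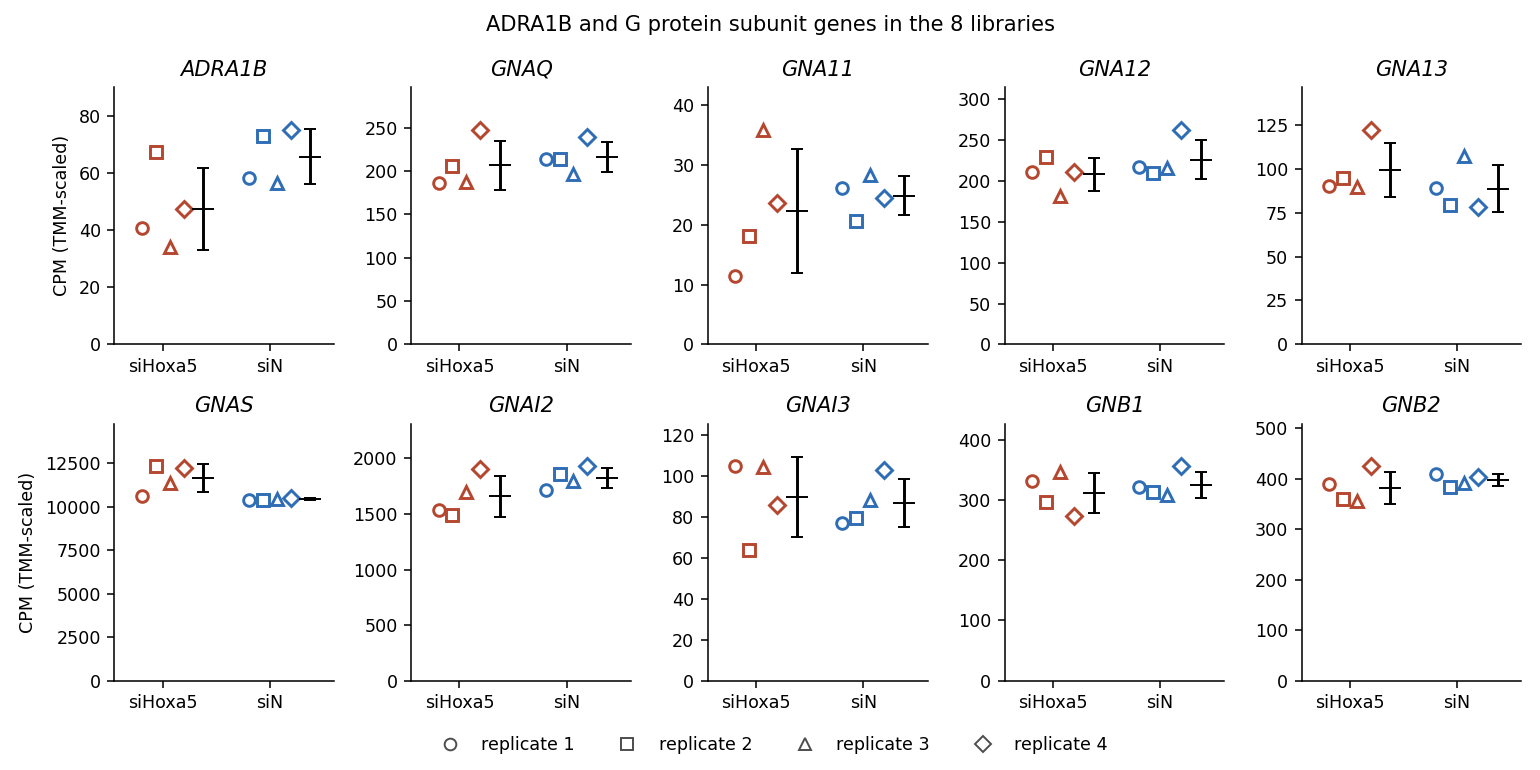
CPM of each gene in every library, with siHoxa5 on the left and siN on the right of each panel, symbols for the replicate number, and black bars for the mean and SD over 4 libraries; vertical axes start at 0. GNAS is the only panel in which the groups do not overlap. Every gene except GNA12 has a larger SD among siHoxa5 libraries than among siN libraries. For GNAS the SD is 809 CPM among siHoxa5 and 48.9 CPM among siN libraries.

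Levels between genes were compared as CPM per kb of exon, with the exon length of the mouse gene in GENCODE M21. The order is a description, because the annotation used for counting is not given and abundant genes at 0 show that counts of different genes are not equally complete. GNAS was the highest at 1040.3 ± 72.3 CPM per kb in siHoxa5 libraries and 934 ± 4.37 in siN libraries (SD, n = 4 each). It was also the gene with the 7th highest mean CPM of all 3020. GNAI2 followed with 439 ± 49.3 CPM per kb in siHoxa5 and 483 ± 23.8 in siN libraries, then GNB2 with 112 ± 9.34 and 117 ± 3.35. GNB1 stood at 73.0 ± 7.74 CPM per kb in siHoxa5 and 76.0 ± 4.99 in siN libraries, and GNA12 at 60.9 ± 5.88 in siHoxa5 and 66.2 ± 7.08 in siN libraries; the ranges of GNB1 and GNA12 overlapped in both groups, so they are not ordered. GNAQ (33.4 ± 4.62 in siHoxa5, 34.9 ± 2.81 in siN) and GNAI3 (27.4 ± 5.94 in siHoxa5, 26.6 ± 3.57 in siN) overlapped among siHoxa5 libraries and were separate among siN libraries. ADRA1B and GNA13 overlapped among siHoxa5 libraries (14.0 ± 4.24 and 15.4 ± 2.40 CPM per kb), whereas among siN libraries ADRA1B was above GNA13 (19.5 ± 2.83 and 13.8 ± 2.08). That separation was narrow, with the lowest ADRA1B library at 16.75 and the highest GNA13 library at 16.67 CPM per kb. Before division by exon length GNA13 was the higher of the 2 in siN libraries (mean 88.4 CPM against 65.8 CPM). GNA11 was the lowest in both groups, at 5.44 ± 2.52 in siHoxa5 and 6.08 ± 0.793 in siN libraries. Of the summed level per kb of the 7 alpha subunits, GNAS and GNAI2 together held most: GNAS took 64.2 ± 2.17% in siHoxa5 and 59.7 ± 1.15% in siN libraries, and the 2 Gq genes took 2.06 ± 0.164% (GNAQ) and 0.334 ± 0.154% (GNA11) in siHoxa5, and 2.23 ± 0.145% (GNAQ) and 0.389 ± 0.0536% (GNA11) in siN libraries. The GNAS locus has several promoters, and both its counts and its exon length are summed over all transcripts, so its level per kb belongs to the locus and to no single transcript.

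**Figure D2:**
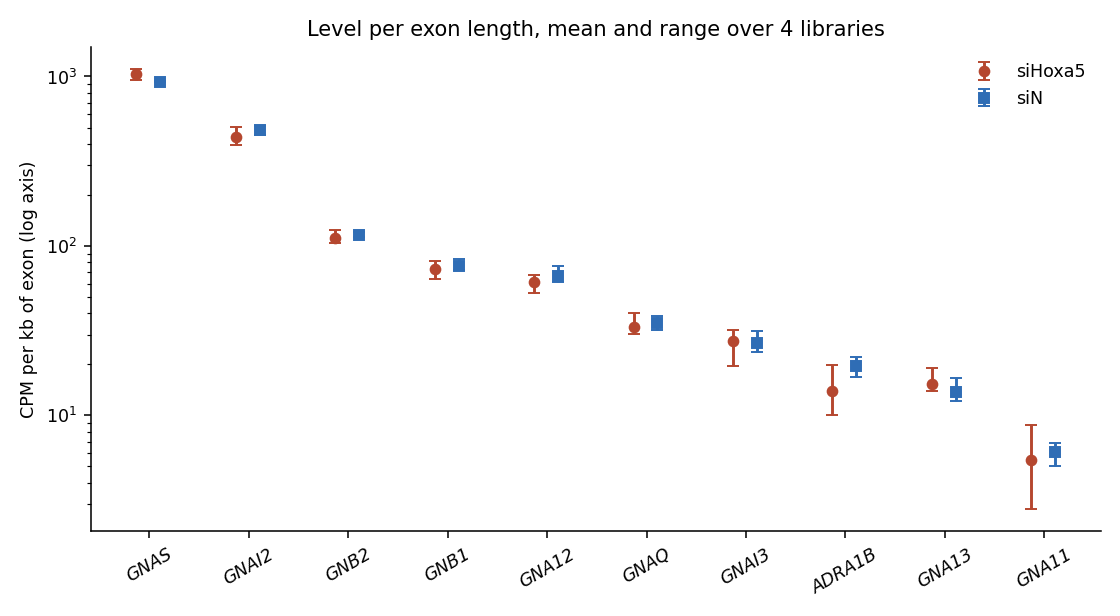
Mean level of each gene in CPM per kb of exon on a log axis, siHoxa5 (circles, left) and siN (squares, right), with bars from the lowest to the highest of 4 libraries. The order runs from GNAS at 1040.3 in siHoxa5 and 934 in siN libraries down to GNA11 at 5.44 in siHoxa5 and 6.08 in siN libraries, and neighbours such as GNB1 and GNA12 overlap.

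ADRA1B, which encodes the alpha1B-adrenergic receptor, one of the receptors that phenylephrine activates, was measured by few counts. The gene lies on chromosome 11 (43774606 to 43901210, minus strand). It had 25, 37, 21 and 26 counts in siHoxa5 libraries 1 to 4 (40.8, 67.4, 34.2 and 47.3 CPM) and 38, 46, 36 and 49 counts in siN libraries (58.4, 73.0, 56.7 and 75.1 CPM). Libraries 1, 3 and 4 of the siHoxa5 group were below every siN library, while siHoxa5 library 2 was within the siN range. The means were 47.4 ± 14.3 CPM in siHoxa5 and 65.8 ± 9.58 CPM in siN libraries (SD, n = 4 each). In edgeR the log2 fold change stood at -0.48 with an SE of 0.21, a 95% interval of -0.89 to -0.07 and an adjusted p of 0.159. The exact two-sided permutation test of the CPM gave p = 0.0857, where the smallest p that 4 against 4 allows is 0.0286. The difference thus did not pass. With siHoxa5 libraries 2 and 4 left out, a setting chosen after the data were seen, it was -0.80 (SE 0.26, edgeR adjusted p = 0.0470). In that setting 4.45% of tested genes were called in either direction and 2.33% lower. Without siHoxa5 library 2 alone the log2 fold change was -0.69 (edgeR adjusted p = 0.0562). Without siHoxa5 library 4 alone it was -0.49 (edgeR adjusted p = 0.198), and neither passed. The log2 fold change was nearest 0 without siHoxa5 library 3, at -0.35 (edgeR adjusted p = 0.421). DESeq2 gave -0.48 (DESeq2 adjusted p = 0.324). Over the 16 alternative settings in all, the log2 fold change ran from -0.80 to -0.35 and the adjusted p from 0.0470 to 0.421. The gene was called in 1 of them, the setting without siHoxa5 libraries 2 and 4.

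The other alpha1 receptor genes gave almost no counts. ADRA1A, the other main alpha1 receptor of cardiomyocytes, had 2 counts summed over siHoxa5 libraries and 0 over siN libraries, a sum below the 3 counts that a 0 allows, and ADRA1D had 0 in all 8. Among the remaining adrenergic receptors, ADRB1, the main beta receptor of the heart and a receptor coupled to Gs, was well measured. It stood at 248, 369.8, 287 and 284 CPM in siHoxa5 libraries and at 237, 233, 245.5 and 229.8 CPM in siN libraries, with library 2 the highest of all. It was higher in siHoxa5 libraries, with 297 ± 51.5 CPM against 236 ± 6.75 CPM in siN libraries (SD, n = 4 each; log2 fold change 0.33, SE 0.10, edgeR adjusted p = 0.0350), but its call was lost without siHoxa5 library 2 (0.21, adjusted p = 0.309), without libraries 2 and 4 (0.18, adjusted p = 0.482), without siHoxa5 library 3, without any single siN library, and with DESeq2 (adjusted p = 0.112), limma-voom or library totals. The opposite signs of ADRA1B and ADRB1 were not compared by a test. The tested genes whose pattern over the 8 libraries was most like that of ADRA1B were AMPD2, which encodes an AMP deaminase, and then CTNND1, which encodes p120 catenin. Their levels on the log2(CPM + 1) scale, each relative to its own siN mean, differed from that of ADRA1B by 0.11 (AMPD2) and 0.15 (CTNND1) on average, where the median over all tested genes was 0.40.

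The Gq class, through which alpha1 receptors act on phospholipase C beta, showed no difference past the threshold. GNAQ, on chromosome 19 (16132831 to 16387463, plus strand), had 186, 206, 188 and 247 CPM in siHoxa5 libraries and 214, 214, 197 and 239 CPM in siN libraries. The groups overlapped, with siHoxa5 library 4 the highest of the 8 and siHoxa5 library 1 the lowest. The edgeR estimate was -0.07 on the log2 scale, with an SE of 0.11 and an adjusted p of 0.811, and its 95% interval of -0.29 to 0.15 leaves room for a change of modest size in either direction. GNA11, the closest relative of GNAQ, on chromosome 10 (81528724 to 81545190, minus strand), had 7, 10, 22 and 13 counts in siHoxa5 libraries and 17, 13, 18 and 16 counts in siN libraries. The siHoxa5 values bracketed the siN values, and the edgeR log2 fold change of -0.16 had an SE of 0.32, a 95% interval of -0.78 to 0.47 and an adjusted p of 0.856. GNAQ had 10.8 ± 4.53 times the counts of GNA11 in siHoxa5 libraries and 8.81 ± 1.55 times in siN libraries (SD, n = 4 each).

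The G12 class, which couples receptors to the actin cytoskeleton, likewise gave no call. GNA12, on chromosome 5 (140758408 to 140830431, minus strand), had 210.6, 229.5, 181 and 211 CPM in siHoxa5 libraries and 217, 209.5, 216 and 262 CPM in siN libraries. The edgeR log2 fold change, -0.12 with an SE of 0.11, had an adjusted p of 0.600. The groups overlapped, and siN library 4 lay above the other 7. The gene overlaps AMZ1 on the opposite strand, and reads of the opposite strand may not have been separated. AMZ1 had 0 counts in all 8 libraries, which does not show how reads from the shared stretch were counted. GNA13, on chromosome 11 (109362831 to 109401369, plus strand), stood at 89.8, 94.7, 89.7 and 121.9 CPM in siHoxa5 and 89.2, 79.4, 107 and 78.1 CPM in siN libraries. siHoxa5 library 4 was above the rest, and the edgeR log2 fold change, 0.16 with an SE of 0.16, had an adjusted p of 0.656. The 95% intervals were -0.34 to 0.09 for GNA12 and -0.16 to 0.48 for GNA13.

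GNAS, which encodes the stimulatory alpha subunit that links beta-adrenergic receptors to adenylyl cyclase, was the one gene of the 10 that was called. It lies on chromosome 2 (174284320 to 174346744, plus strand), in an imprinted locus with several start sites. It had 10617, 12323, 11359.7 and 12249 CPM in siHoxa5 libraries and 10409, 10409, 10458 and 10512 CPM in siN libraries. Every siHoxa5 library was above every siN library, although siHoxa5 library 1 exceeded the highest siN library by little, and libraries 2 and 4 were the highest. GNAS rose to 11637 ± 809 CPM in siHoxa5 libraries, against 10447 ± 48.9 CPM in siN libraries (SD, n = 4 each). The ratio was 1.11 and the edgeR log2 fold change 0.16, with an SE of 0.04, a 95% interval of 0.07 to 0.24 and an adjusted p of 0.0132. The exact permutation test gave 0.0286, the smallest p this design allows. The call was lost without siHoxa5 library 2 (log2 fold change 0.13, adjusted p = 0.0720), without siN library 2 (adjusted p = 0.0559), 3 (0.0688) or 4 (0.0555), and without siHoxa5 libraries 2 and 4 together, where the log2 fold change was 0.08 (SE 0.04, adjusted p = 0.236). In the same libraries the summed cardiomyocyte markers were 68254 to 73187 CPM in the siHoxa5 group and 54079 to 57648 CPM in the siN group, of which the myosin heavy chain genes MYH6 and MYH7 made up most. The list did not move as one: of its 9 tested genes 5 were called higher and 1 lower, TNNT2 (133 ± 26.1 CPM in siHoxa5 and 181 ± 30.1 CPM in siN libraries, SD, n = 4 each; log2 fold change -0.44, edgeR adjusted p = 0.0257), and ACTC1 had -0.026. The summed fibroblast markers given above also did not overlap between groups, by a small margin. Of the 3 tested fibroblast markers 1 was called, COL1A1 (log2 fold change 0.21, edgeR adjusted p = 0.000195). COL1A2 (edgeR adjusted p = 0.621) and DDR2 (0.838) overlapped between groups and were not called. The part of either marker list in the GNAS difference was not tested. In bulk RNA, a change in the share of a cell type and a change of RNA per cell cannot be told apart. GENCODE M21 lists 16 protein-coding GNAS transcripts, of which 7 carry the coding end shown above, and the counts do not separate them. The antisense row GNAS-AS1 had 0 counts in all 8 libraries. The strand of a read may not be known, so this does not show that antisense reads were absent.

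The Gi class, which opposes Gs at adenylyl cyclase, contains the second most abundant gene of the set. GNAI2, on chromosome 9 (107614125 to 107635367, minus strand), had 1538, 1492, 1696 and 1904 CPM in siHoxa5 libraries and 1715, 1859, 1801 and 1927 CPM in siN libraries. Libraries 1, 2 and 3 of the siHoxa5 group were below every siN library, and siHoxa5 library 4 was above 3 of them. The means of 1657.5 ± 186 CPM in siHoxa5 and 1825 ± 90.0 CPM in siN libraries (SD, n = 4 each) corresponded to -0.14 on the log2 scale in edgeR, with an SE of 0.06, a 95% interval of -0.25 to -0.03 and an adjusted p of 0.128, which did not pass. The exact permutation p was 0.171. Without siHoxa5 library 4 the value was -0.21 (adjusted p = 0.00246), and without siHoxa5 libraries 2 and 4 it was -0.17 (SE 0.05, adjusted p = 0.0297); these 2 settings gave a call and the other 14 did not. Without siHoxa5 library 2 alone it was -0.092 (adjusted p = 0.431), and over the 16 alternatives the log2 fold change ran from -0.21 to -0.092. GNAI3, on chromosome 3 (108107280 to 108146146, minus strand), had 104.5, 63.8, 104.4 and 85.5 CPM in siHoxa5 libraries and 76.9, 79.4, 88.1 and 102.6 CPM in siN libraries. It had the lowest and the highest value of the 8 within the siHoxa5 group, and the edgeR log2 fold change, 0.05 with an SE of 0.17 and a 95% interval of -0.28 to 0.38, had an adjusted p of 0.907.

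The ratio of GNAS to GNAI2 counts within a library does not depend on library scaling, and it sets a Gs gene against a Gi gene measured in the same cells. It was 6.90, 8.26, 6.70 and 6.43 in siHoxa5 libraries 1 to 4 and 6.07, 5.60, 5.81 and 5.45 in siN libraries. The groups did not overlap. The means were 7.07 ± 0.814 in siHoxa5 and 5.73 ± 0.267 in siN libraries (SD, n = 4 each). This pair was chosen after the values were seen, so the ratio is given as a description and carries no test. The ratios of GNAI2 to GNAI3 (19.2 ± 4.32 in siHoxa5, 21.2 ± 2.05 in siN), GNA12 to GNA13 (2.13 ± 0.318 in siHoxa5, 2.61 ± 0.560 in siN) and GNB2 to GNB1 (1.24 ± 0.223 in siHoxa5, 1.23 ± 0.0639 in siN) overlapped between groups.

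**Figure D3:**
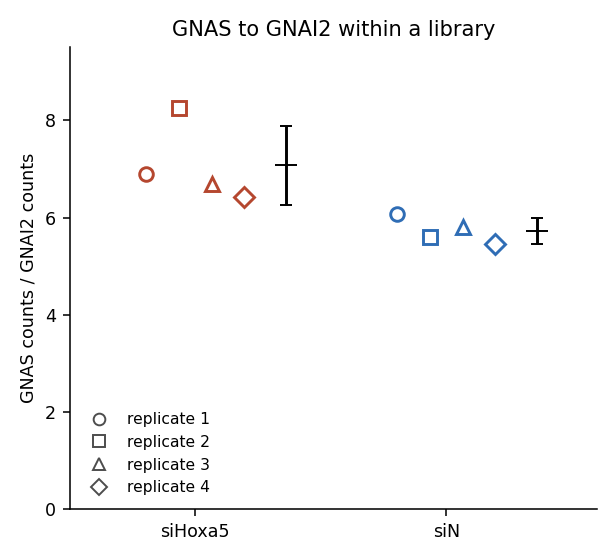
Counts of GNAS divided by counts of GNAI2 in each library, siHoxa5 left and siN right, with symbols for the replicate number and black bars for the mean and SD over 4 libraries. The 4 siHoxa5 libraries lie between 6.43 and 8.26 and the 4 siN libraries between 5.45 and 6.07.

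The beta subunits, which pair with a gamma subunit and carry signals of their own to channels and kinases, did not differ past the threshold. GNB1, on chromosome 4 (155491361 to 155559269, plus strand), stood at 331, 297, 346 and 273 CPM in siHoxa5 and 321, 313, 309 and 355 CPM in siN libraries, with an edgeR log2 fold change of -0.05, an SE of 0.09 and an adjusted p of 0.823. GNB2, on chromosome 5 (137528127 to 137533510, minus strand), stood at 389, 359, 355 and 424 CPM in siHoxa5 and 409, 384, 390.3 and 403 CPM in siN libraries, with an edgeR log2 fold change of -0.06, an SE of 0.09 and an adjusted p of 0.783. GNB2 overlaps the erythropoietin gene EPO, which had 0 counts in all 8 libraries. That does not show how reads from the shared stretch were counted. Both genes overlapped between groups. Their 95% intervals, -0.24 to 0.13 for GNB1 and -0.23 to 0.11 for GNB2, bound any difference more closely than those of GNA11, GNA13 or GNAI3.

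**Figure D4:**
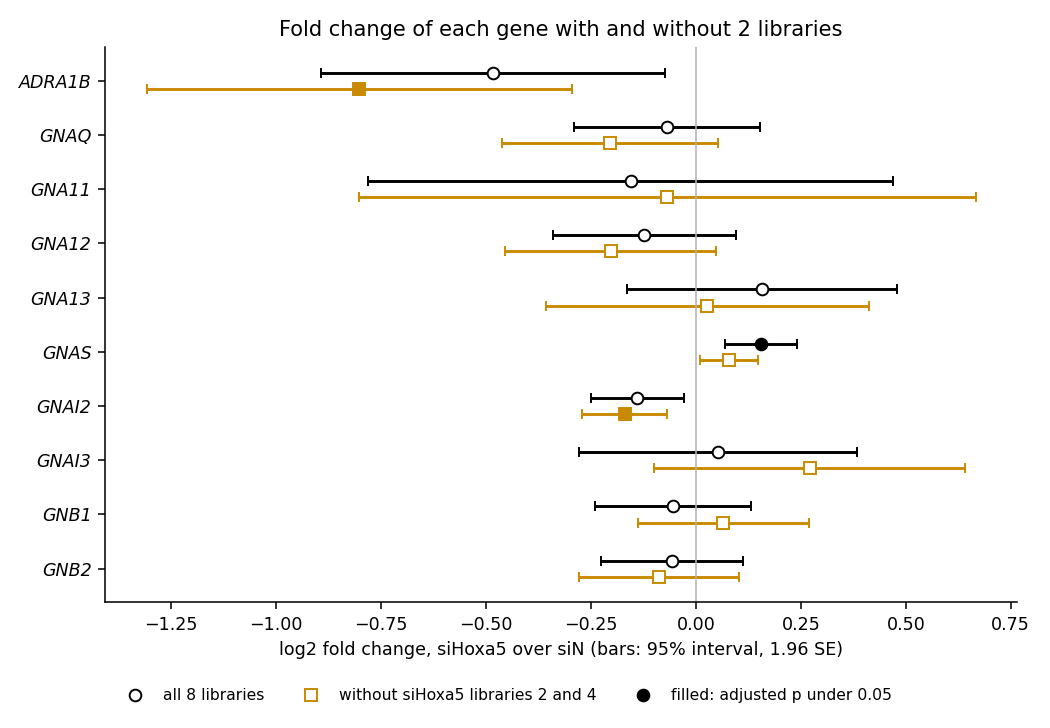
Log2 fold change of each gene, siHoxa5 over siN, with 95% intervals, for all 8 libraries (circles) and without siHoxa5 libraries 2 and 4 (squares); filled symbols have an edgeR adjusted p under 0.05. With all libraries GNAS alone is filled (0.16), and without the 2 libraries ADRA1B (-0.80) and GNAI2 (-0.17) are filled and GNAS (0.08) is not. Leaving out these 2 libraries was chosen after the data were seen.

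The rest of the pathway was described with 7 lists of receptors, subunits, effectors and regulators, 135 genes in all, of which 87 had a count and 45 were tested. Outside the 10 genes, 35 were tested and 1 of them, ADRB1, was called, which is 2.86% against 7.12% of all tested genes; their median log2 fold change was 0.02. For 4 of the 35, ADRB1, ITPR1, PPP1R12A and PPP1R12B, every siHoxa5 library was above every siN library, beside 6.19% of tested genes. These 4 were the only ones of the 35 without overlap in either direction. Over all tested genes 5.76% were lower in siHoxa5 libraries without overlap. The lists other than receptors and alpha subunits had no call.

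Of the other subunits listed, the gamma subunit gene GNG5 had a log2 fold change of -0.18 (SE 0.17) and the beta subunit gene GNB5 of 0.14 (SE 0.32); edgeR, DESeq2 and limma-voom called 0 of the 4 tested beta and gamma genes, and 0 had an unadjusted p under 0.05. Of 9 tested Gq effectors 0 were called by any of the 3 tools and 1 had an unadjusted p under 0.05. That gene was ITPR1, an inositol trisphosphate receptor that releases calcium. It was at 90.3 ± 9.41 CPM in siHoxa5 and 69.2 ± 10.6 CPM in siN libraries (SD, n = 4 each), without overlap between groups, and edgeR put the log2 fold change at 0.38 (SE 0.18, adjusted p = 0.203). PLCB3, a phospholipase C beta isoform, had -0.50 (SE 0.38). Of 11 tested G12/13 effectors 0 were called by the 3 tools and 2 had an unadjusted p under 0.05. PPP1R12B, a regulatory subunit of myosin phosphatase, was at 47.4, 78.3, 66.9 and 49.1 CPM in siHoxa5 and 46.1, 25.4, 47.2 and 33.7 CPM in siN libraries, with the lowest siHoxa5 library just above the highest siN library. In edgeR it stood at 0.66 on the log2 scale, with an SE of 0.22 and an adjusted p of 0.0530, and it passed with the stricter filter on low values and without siHoxa5 library 1 or 4. It was 0.52 without siHoxa5 library 2 (adjusted p = 0.253), 0.51 without siN library 2 (0.211), 0.66 with DESeq2 (0.159) and 0.59 without siHoxa5 libraries 2 and 4 (0.234), none of which passed. ROCK1, a protein kinase, had 0.24 (SE 0.10, adjusted p = 0.159) and passed without siHoxa5 library 1, but it was 0.15 without siHoxa5 library 4 (adjusted p = 0.517) and 0.11 without siHoxa5 libraries 2 and 4 (adjusted p = 0.735).

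Of 8 tested Gs and Gi effectors 0 were called by the 3 tools and 2 had an unadjusted p under 0.05. These were PDE4B, a phosphodiesterase that degrades cyclic AMP (13.3 ± 9.25 CPM in siHoxa5 and 26.4 ± 9.59 CPM in siN libraries, log2 fold change -0.98, SE 0.37, edgeR adjusted p = 0.0905), and ADCY5, a main adenylyl cyclase of the heart (95.3 ± 13.4 CPM in siHoxa5 and 73.5 ± 13.3 CPM in siN libraries, 0.37, SE 0.17, adjusted p = 0.202). Both overlapped between groups. PDE4B had 1 count in siHoxa5 library 4, and without that library its log2 fold change was -0.64 (adjusted p = 0.348). DESeq2 gave no adjusted p for GNB5, PLCB3, PDE4B or GRK2, nor for GNA11 of the 10 genes. Of the receptor and G protein regulators, GRK2, the kinase that desensitizes adrenergic receptors, had 0.35 (SE 0.30) and GRK6, a kinase of the same family, 0.25 (SE 0.23); 0 of 3 tested regulators were called by the 3 tools, and 0 had an unadjusted p under 0.05.

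**Figure D5:**
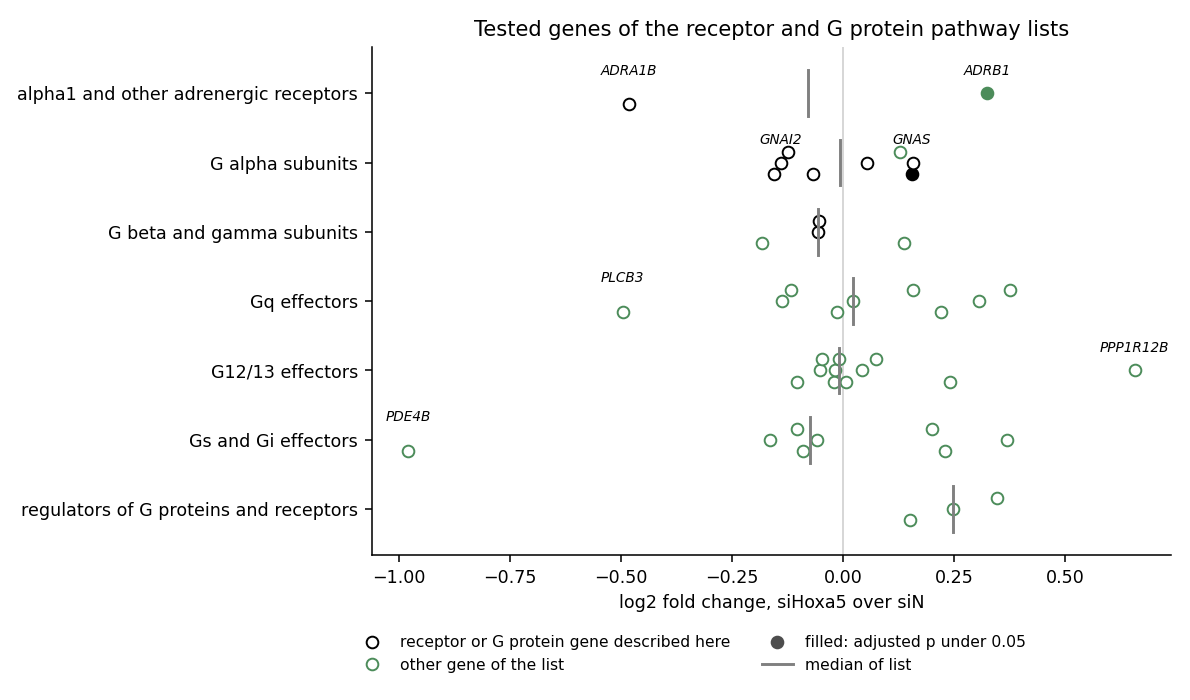
Log2 fold change, siHoxa5 over siN, of each tested gene in the 7 pathway lists; black circles are the 10 genes described here, green circles the other genes, filled circles have an edgeR adjusted p under 0.05, and grey lines are list medians. GNAS and ADRB1 are the 2 filled points, and most other points lie near 0.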

How the data were processed

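RNA-seq counts of 8 libraries (4 siHoxa5, 4 siN) were analysed, with groups and replicate numbers from the sample titles. The deposited values are estimated counts by gene symbol without any scaling, and all are whole numbers apart from 4 rows. The submitters' processing notes name build mm10, STAR 2.6.1b, HTSeq, FastQC 0.11.8 and R 3.5.3; the annotation and strand setting are not stated there. All 8 library files were identical to their columns in the series table.

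After rounding, counts entered edgeR 4.0.16 (robust quasi-likelihood fit, group as the only term, all 8 libraries; R 4.3.3, limma 3.58.1) after TMM scaling and filterByExpr (minimum count 10, total 15), with Benjamini-Hochberg adjustment over 3020 genes, which held 98.6% of the counts, and a threshold of 0.05. Adjusted p-values are from edgeR unless another tool is named. CPM use TMM-scaled sizes. SEs come from the quasi-likelihood F, intervals from the SE; exact intervals and floors cover counting error only. DESeq2 1.42.0, limma-voom, other scalings and filters, each library left out and a replicate block were alternatives. Same-numbered libraries did not deviate together (r -0.0201 to 0.0662), so numbers were not taken as pairs.

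The genes, lists and rule for named genes were chosen with earlier results of these data known. Named are the 10 genes, HOXA5, called list genes (otherwise the 2 smallest p per list) and the 3 patterns nearest ADRA1B, 1 of which is not reported here. List symbols were matched by name, and MRTFA and MRTFB did not match. Sequences are from GENCODE M21 transcripts.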

Additional observations from a re-analysis of the deposited data

Results flagged for a closer look

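In 2 of 44 groups of 4 libraries, 1 library lay far from the other 3 (Dixon's test at its 95% critical value), about the 1 in 20 that chance gives. GNA13 had 121.9 CPM in siHoxa5 library 4, where the other 3 siHoxa5 libraries had 89.7 to 94.7 CPM. GNA12 had 262 CPM in siN library 4, where the other 3 siN libraries had 209.5 to 216.9 CPM.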

How the results depend on the processing

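GNAQ, GNA12, GNA13, GNAS, GNAI2, GNB2 and ADRA1B kept their direction in all 16 alternatives; GNA11 turned positive without siHoxa5 library 1, GNAI3 negative without siHoxa5 library 1 or 3, GNB5 negative without siHoxa5 library 3, and GNB1 positive without siHoxa5 library 4 and, at 0.066, without siHoxa5 libraries 2 and 4 (log2 fold changes, none called; the cause was not tested). With 1 library left out they ran from -0.498 to 0.072 for GNA11, -0.029 to 0.182 for GNAI3, -0.109 to 0.0028 for GNB1 and -0.093 to 0.323 for GNB5. Of the 10 genes 1 was called, 0 to 2 with 1 library left out, and 2 without siHoxa5 libraries 2 and 4, an alternative chosen after seeing the data. Of the other pathway genes 1 was called, 0 with library totals (6 with unadjusted p under 0.05), DESeq2 (4), limma-voom (6) or without siHoxa5 libraries 2 and 4 (3), 2 with the stricter filter, and 0 to 3 with 1 library left out. Over all genes 215 were called, 119 with DESeq2, 143 without siHoxa5 libraries 2 and 4, and 145 to 260 with 1 library left out. With the replicate block, which rests on a shared number only, 250 genes were called, 1 of the 10 and 2 other pathway genes (PPP1R12B added); 2 of 4 siHoxa5 libraries correlated best with their own number. At 7 to 22 counts per library, GNA11 was measured too imprecisely to bound its change closely.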

Other observations

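For 9 of the 10 genes the coefficient of variation over libraries was higher among siHoxa5 than among siN libraries, as it was for 58.6% of all tested genes. GNAS varied by 6.95% among siHoxa5 libraries and by 0.468% among siN libraries, where counting error alone gives 1.22% in each group. GNAO1, the alpha subunit of Go, named here after its values were seen, had 529 ± 56.5 CPM in siHoxa5 and 483 ± 42.8 CPM in siN libraries (SD, n = 4 each; log2 fold change 0.13, edgeR adjusted p = 0.382). Per kb of exon that is 47.9 CPM in siHoxa5 and 43.7 CPM in siN libraries, between GNA12 and GNAQ. Several pathway genes were at 0 counts in all 8 libraries, among them GNAI1, 11 of 17 beta and gamma subunit genes (GNG2, GNG7, GNG10 and GNG12 included), and the regulators RGS2, RGS4 and RGS5.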
